A study of Mus musculus with 4 samples.

Results

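Open chromatin of the extensor digitorum longus (EDL), a limb muscle, was compared with that of the diaphragm (Dia), the main muscle of breathing, by ATAC-seq, an assay that uses the Tn5 transposase to cut and tag accessible DNA. The regions compared were the 20000 peaks with the highest Peak Score in each list, 40000 of the 120839 peaks of the series, taken from 30136 peaks in EDL and 21582 in Dia. The Peak Score is the tag count of a peak scaled to library size by HOMER, so a peak with a high score holds many transposition events. Both muscles came from wild-type mice with no treatment, labelled C57BL/6, which per the study's methods were male C57BL/6J. Neither the labels nor the methods give the number of animals behind these libraries. The labels call each library pooled, and 1 library per muscle was analysed, together with 1 of quadriceps (Quad) and 1 of soleus (Sol), which served only as muscles outside the comparison.

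With 1 library per muscle no difference has a replicate check, and no p-value is given. Every interval below is a 95% interval that covers counting error only. If scores are scaled to 10 M tags, their steps give 104 M tags in EDL and 99.3 M in Dia (M, mega). The 20000 peaks made up 66.4% of the EDL list and 92.7% of the Dia list, and the lowest score kept was 5.58 in EDL (58 tags) and 4.53 in Dia (45 tags). The Dia selection therefore reached down to weaker peaks, while the EDL list had more peaks left below its limit. Peaks were 208 bp wide in EDL and 232 bp in Dia, end minus start. Each peak carries the gene with the nearest transcription start site (TSS) in the authors' annotation, so a count of peaks per gene describes open regions around it, not its expression.

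Skeletal muscle fibres differ in the myosin, calcium-handling proteins and fuel they use. Fast glycolytic fibres, which dominate the EDL, burn glycogen and contract quickly, while the diaphragm works without rest, has a mix of fibre types with a high oxidative capacity, and is covered on both faces by mesothelium. Fibre identity is written partly in enhancers, distal stretches of open chromatin bound by muscle regulators such as MyoD, which recognises E-boxes, and by MEF2 and nuclear receptor proteins. The Hox genes, which mark position along the body and the limb, are also used differently in limb and trunk muscle.

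Regions that stood on 1 side of the comparison are printed here with the matches to 16 short motifs in capitals and all other bases in lower case. The sequences are the plus strand of GRCm38.p6, the assembly behind mm10, over the authors' peaks. The first 3 are from EDL. The Smyd2 region (chr1:189960520-189960728, intergenic, 38333 bp upstream of the TSS) was at percentile 88.4 of the EDL list and 10.1 of the Dia list, and its capitals mark a MEF2 site. The Mef2d region (chr3:88138351-88138559, 3917 bp upstream of the TSS) had a score of 19.1 in EDL and no Dia peak within 1000 bp, and its capitals mark a MAF site and an E-box. The Ehbp1l1 region (chr19:5725079-5725287, intron 1) had a score of 18 in EDL and no Dia peak within 1000 bp, and its capitals mark, in order, an ETS site, a MEF2 site, an E-box, a PITX site and another E-box.
Smyd2: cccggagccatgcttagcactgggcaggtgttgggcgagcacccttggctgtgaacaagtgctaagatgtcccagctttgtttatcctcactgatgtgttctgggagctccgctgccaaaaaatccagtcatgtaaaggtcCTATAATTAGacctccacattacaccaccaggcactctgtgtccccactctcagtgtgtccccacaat
Mef2d: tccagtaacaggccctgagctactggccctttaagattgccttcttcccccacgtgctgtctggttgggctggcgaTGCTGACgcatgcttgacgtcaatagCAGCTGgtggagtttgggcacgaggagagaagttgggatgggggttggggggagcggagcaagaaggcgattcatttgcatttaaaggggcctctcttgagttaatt
Ehbp1l1: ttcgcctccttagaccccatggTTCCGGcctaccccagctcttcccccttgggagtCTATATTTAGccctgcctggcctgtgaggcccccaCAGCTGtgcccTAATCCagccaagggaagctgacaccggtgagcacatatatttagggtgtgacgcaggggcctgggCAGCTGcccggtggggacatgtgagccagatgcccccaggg

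The next 4 are Dia peaks. The Bach2 region (chr4:32238577-32238809, intergenic, 178742 bp upstream of the TSS) was at percentile 3.05 of the EDL list and 81.3 of the Dia list, and holds an ETS site. The Plcb1 promoter region (chr2:134786099-134786331) was at percentile 1.05 of the EDL list and 70.9 of the Dia list, and holds 2 SP/KLF sites. The Lpin1 region (chr12:16591523-16591755, intron 1) had a score of 14.8 in Dia, no EDL peak within 1000 bp and an AP-1 site. The Tpm1 promoter region (chr9:67043767-67043999) had a score of 13.6 in Dia and no EDL peak within 1000 bp, and its capitals mark SP/KLF, ETS, SP/KLF and SP/KLF sites in that order.
Bach2: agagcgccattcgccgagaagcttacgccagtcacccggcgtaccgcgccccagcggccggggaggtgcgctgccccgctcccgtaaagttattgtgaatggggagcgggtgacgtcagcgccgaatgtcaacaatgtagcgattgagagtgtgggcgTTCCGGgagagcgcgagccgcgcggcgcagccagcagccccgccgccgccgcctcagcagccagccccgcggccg
Plcb1: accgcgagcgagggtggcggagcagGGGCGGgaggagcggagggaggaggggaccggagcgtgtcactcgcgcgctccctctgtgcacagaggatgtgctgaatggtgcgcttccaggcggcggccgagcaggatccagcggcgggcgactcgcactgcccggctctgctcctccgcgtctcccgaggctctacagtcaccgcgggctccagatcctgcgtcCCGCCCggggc
Lpin1: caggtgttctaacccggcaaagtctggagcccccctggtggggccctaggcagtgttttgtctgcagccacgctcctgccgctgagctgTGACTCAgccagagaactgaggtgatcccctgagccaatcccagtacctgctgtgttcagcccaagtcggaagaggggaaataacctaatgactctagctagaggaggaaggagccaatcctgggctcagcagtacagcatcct
Tpm1: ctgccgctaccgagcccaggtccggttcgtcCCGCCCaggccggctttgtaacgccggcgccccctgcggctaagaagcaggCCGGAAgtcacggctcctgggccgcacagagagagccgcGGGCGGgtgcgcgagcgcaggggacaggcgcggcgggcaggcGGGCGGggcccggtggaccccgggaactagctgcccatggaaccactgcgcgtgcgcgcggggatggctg

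Promoters of 6 genes with a promoter peak in 1 of the lists are given from RefSeq (GRCm38.p6), from 250 bases before the start to 50 after it, on the strand of the gene. Myh4 (chr11:67237562-67237861, plus strand), Cacna1s (chr1:136052561-136052860, plus strand), Clcn1 (chr6:42286435-42286734, plus strand) and Hoxa10 (chr6:52234890-52235189, minus strand) had a peak there in EDL. Grb14 (chr2:65022717-65023016, minus strand) and Pparg (chr6:115360894-115361193, plus strand) had a peak there in Dia. The capitals in Myh4 mark a TEAD site, a MEF2 site that overlaps a posterior HOX site, an E-box and CTATAAA. These last letters match the posterior HOX pattern but also read as a TATA box. In Cacna1s the capitals mark a TEAD site, an E-box, a PITX site and an SP/KLF site, and in Clcn1 a T-box site and a MEF2 site that overlaps a posterior HOX site. The posterior HOX letters in Clcn1 are CTATAAA too, and likewise also read as a TATA box. In Hoxa10 the capitals mark an ETS and an NFAT site, in Grb14 5 SP/KLF sites, and in Pparg an SP/KLF site and a nuclear receptor monomer site.
Myh4 promoter: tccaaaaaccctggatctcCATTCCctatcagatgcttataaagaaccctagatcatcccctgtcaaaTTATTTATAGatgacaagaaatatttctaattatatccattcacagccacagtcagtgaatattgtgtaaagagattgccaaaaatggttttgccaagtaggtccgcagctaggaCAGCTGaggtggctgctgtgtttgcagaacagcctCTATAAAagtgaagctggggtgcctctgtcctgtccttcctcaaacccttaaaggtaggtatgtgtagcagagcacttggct
Cacna1s promoter: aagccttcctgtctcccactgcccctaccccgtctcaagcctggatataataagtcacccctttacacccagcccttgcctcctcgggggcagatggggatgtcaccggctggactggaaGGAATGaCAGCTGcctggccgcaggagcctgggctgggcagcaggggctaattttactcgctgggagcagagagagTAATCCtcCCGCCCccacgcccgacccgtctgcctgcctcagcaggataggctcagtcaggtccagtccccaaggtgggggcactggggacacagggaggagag
Clcn1 promoter: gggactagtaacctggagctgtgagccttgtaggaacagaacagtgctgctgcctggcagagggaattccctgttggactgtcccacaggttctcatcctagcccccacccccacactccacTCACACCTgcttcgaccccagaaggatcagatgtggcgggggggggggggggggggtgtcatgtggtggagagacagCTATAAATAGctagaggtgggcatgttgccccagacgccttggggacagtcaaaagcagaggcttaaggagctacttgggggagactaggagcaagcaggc
Hoxa10 promoter: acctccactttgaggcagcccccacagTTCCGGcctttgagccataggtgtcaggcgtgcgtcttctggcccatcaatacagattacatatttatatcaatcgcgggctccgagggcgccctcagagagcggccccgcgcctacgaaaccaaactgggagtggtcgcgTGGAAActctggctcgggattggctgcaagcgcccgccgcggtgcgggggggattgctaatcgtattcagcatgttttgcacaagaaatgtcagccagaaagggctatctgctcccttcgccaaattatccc
Grb14 promoter: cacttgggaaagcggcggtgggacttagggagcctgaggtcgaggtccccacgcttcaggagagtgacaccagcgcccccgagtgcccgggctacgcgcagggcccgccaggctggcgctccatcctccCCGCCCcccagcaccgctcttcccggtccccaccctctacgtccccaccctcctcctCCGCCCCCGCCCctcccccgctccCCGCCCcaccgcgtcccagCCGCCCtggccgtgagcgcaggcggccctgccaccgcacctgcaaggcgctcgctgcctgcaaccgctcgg
Pparg promoter: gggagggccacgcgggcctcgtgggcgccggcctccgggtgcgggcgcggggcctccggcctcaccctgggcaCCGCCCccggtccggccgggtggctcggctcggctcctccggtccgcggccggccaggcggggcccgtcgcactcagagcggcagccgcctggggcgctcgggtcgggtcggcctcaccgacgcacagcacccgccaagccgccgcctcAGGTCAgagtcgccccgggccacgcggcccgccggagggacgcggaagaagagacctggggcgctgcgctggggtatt

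The first question was how much of the open chromatin both muscles shared. Peaks overlapping by 1 bp or more formed 13514 pairs, which were 67.6% of either selection and 51.0% of the 26486 merged regions (50.4% to 51.6%). The other 6486 peaks on each side are called EDL-only and Dia-only here. These labels depend on the limit of 20000 peaks more on the Dia side than on the EDL side. A lower-scored peak of the other muscle overlapped 197 of the EDL-only peaks (3.04%) but 2384 of the Dia-only peaks (36.8%). No peak of the whole Dia list lay within 1000 bp of 5068 EDL-only peaks (78.1%), and no peak of the whole EDL list within 1000 bp of 3117 Dia-only peaks (48.1%). A peak without overlap can still lie close to a peak of the other muscle. At the Abtb1 promoter, for example, the EDL and Dia peaks were 16 bp apart. Where a single peak below is said only to overlap no peak, its distance to the nearest one is not given.

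Shared chromatin was mostly at promoters, and the chromatin open on 1 side was mostly distal. Promoters, from 1000 bp upstream to 100 bp downstream of a TSS, held 54.5% of the shared EDL peaks. They held 13.5% of the EDL-only peaks (12.7% to 14.3%) and 22.3% of the Dia-only peaks (21.3% to 23.3%). Introns held 48.5% of the EDL-only peaks (47.3% to 49.7%) against 35.2% of the Dia-only peaks (34.0% to 36.4%), and intergenic sequence held 32.2% and 36.1%. The median distance to the TSS was 15381.5 bp in EDL-only and 14355 bp in Dia-only peaks, but the lower quartiles were 3306 bp and 501 bp, and 17.9% and 28.1% of the peaks lay within 1 kb of a TSS. The EDL-only peaks thus lay more in introns and the Dia-only peaks more at promoters, beyond the counting intervals. The order of the promoter shares held without peaks that had a neighbour of the other muscle within 1000 bp, at 8.13% in EDL-only and 15.8% in Dia-only peaks. One-sided peaks were also weak peaks: their median percentile within the list was 29.9 in EDL-only and 22.4 in Dia-only, against 61.5 and 64.2 for the shared peaks.

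**Figure D1:**
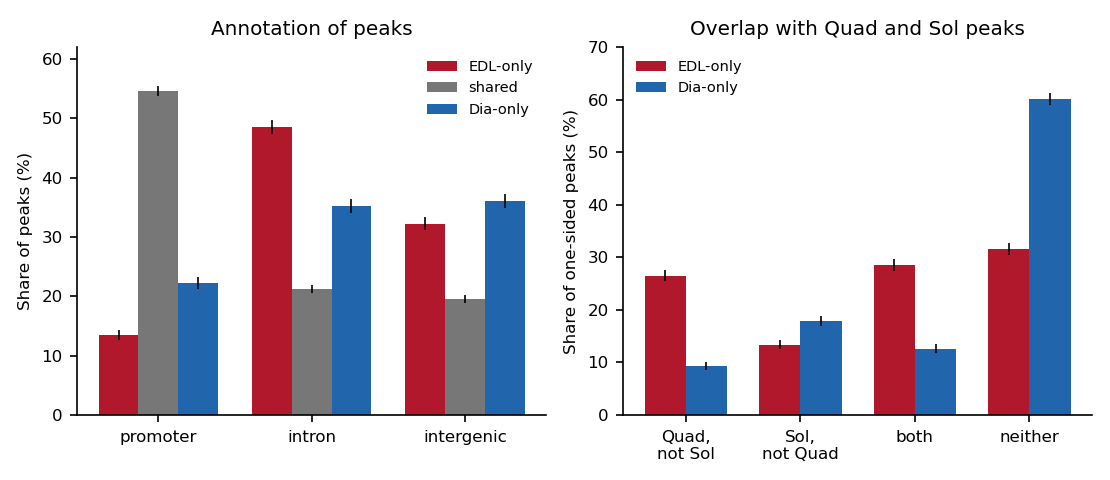
Left, share of the EDL-only, shared and Dia-only peaks (percent, vertical axis from 0) annotated as promoter, intron and intergenic; right, share of the EDL-only and Dia-only peaks that overlapped a peak of Quad but not Sol, Sol but not Quad, both or neither. Bars carry 95% Wilson intervals, and promoters hold 54.5% of the shared, 13.5% of the EDL-only and 22.3% of the Dia-only peaks, while 60.2% of the Dia-only peaks lie in neither limb muscle.

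The base composition of the sets differed in the same order as their promoter shares. In the 200 bp around the peak centres, mean GC content was 53.6% in EDL-only, 55.4% in Dia-only and 60.0% in shared peaks, and the mean number of CpG dinucleotides was 5.17, 7.34 and 11.96. Outside promoters the GC content was nearly equal, 52.3% in EDL-only and 52.7% in Dia-only peaks. Sequence soft-masked as repeats made up 7.36% and 7.14% of the bases, so neither set was richer in repeats.

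The quadriceps, another fast limb muscle, and the soleus, a slow limb muscle, gave measurements that the comparison of EDL with Dia did not use. Of the EDL-only peaks 55.0% overlapped 1 of the 20000 highest-scored Quad peaks (53.8% to 56.2%) and 41.9% a Sol peak (40.7% to 43.1%). Of the Dia-only peaks 21.9% overlapped a Quad peak (20.9% to 22.9%) and 30.5% a Sol peak (29.4% to 31.7%). EDL-only peaks were found in Quad but not Sol in 26.5% and in Sol but not Quad in 13.4%, whereas for Dia-only peaks these shares were 9.31% and 17.9%. Within these selections Quad thus shared more of the EDL side and Sol more of the Dia side, but the order on the Dia side depended on the number of peaks. With every peak of all lists kept, 37.4% of the Dia-only peaks overlapped a Quad peak (36.1% to 38.7%) and 33.9% a Sol peak (32.6% to 35.2%), whereas the EDL-only peaks kept their order at 64.5% and 41.3%. Most Dia-only peaks, 60.2% (59.0% to 61.3%), overlapped no peak of the Quad or Sol selection, against 31.6% (30.5% to 32.8%) of the EDL-only peaks. These selections held 49.6% of the Quad list and 69.5% of the Sol list, and the share in neither whole list was not counted. Shared pairs were found in Quad for 86.6% and in Sol for 89.5% of their EDL peaks.

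At the 13514 pairs, the percentile of the Peak Score within its own list was compared, since scores of separate libraries are not on a common scale. The median difference of EDL minus Dia was -1.85 percentile points, and 52.1% of the pairs lay within 10 points of each other. A pair was called higher on 1 side where it differed by 25 points or more and the counting intervals of the percentiles did not overlap. By this rule 421 pairs (3.12%) were higher in EDL and 516 (3.82%) in Dia. The 2 sets of calls were not alike in score. Outside promoters the median ratio of the scores, EDL over Dia, was 1.96 for calls towards EDL and 0.68 for calls towards Dia. At promoters the ratios were 1.92 and 0.68, and over all pairs 1.06. Calls towards Dia thus rested on smaller differences in score. The balance of called pairs turned to EDL with 10000 peaks per list (176 and 139 pairs) and with every peak kept (1219 and 118). These calls fell in different places. Of the 421 pairs higher in EDL, 52.7% lay in introns and 7.36% at promoters, and of the 516 higher in Dia, 64.0% lay at promoters.

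The split was also visible across all pairs. The 7254 pairs with both peaks at a promoter had a median difference of -2.73 points, with 31 called higher in EDL and 320 in Dia. The 6046 pairs with both peaks outside promoters had a median difference of 0.08 points, with 390 called higher in EDL and 176 in Dia. A percentile is a rank, so promoters that rank higher in Dia imply distal peaks that rank lower, and these values cannot say which class changed. In EDL, 41.2% of the 20000 peaks were promoters, and in Dia 44.0%.

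**Figure D2:**
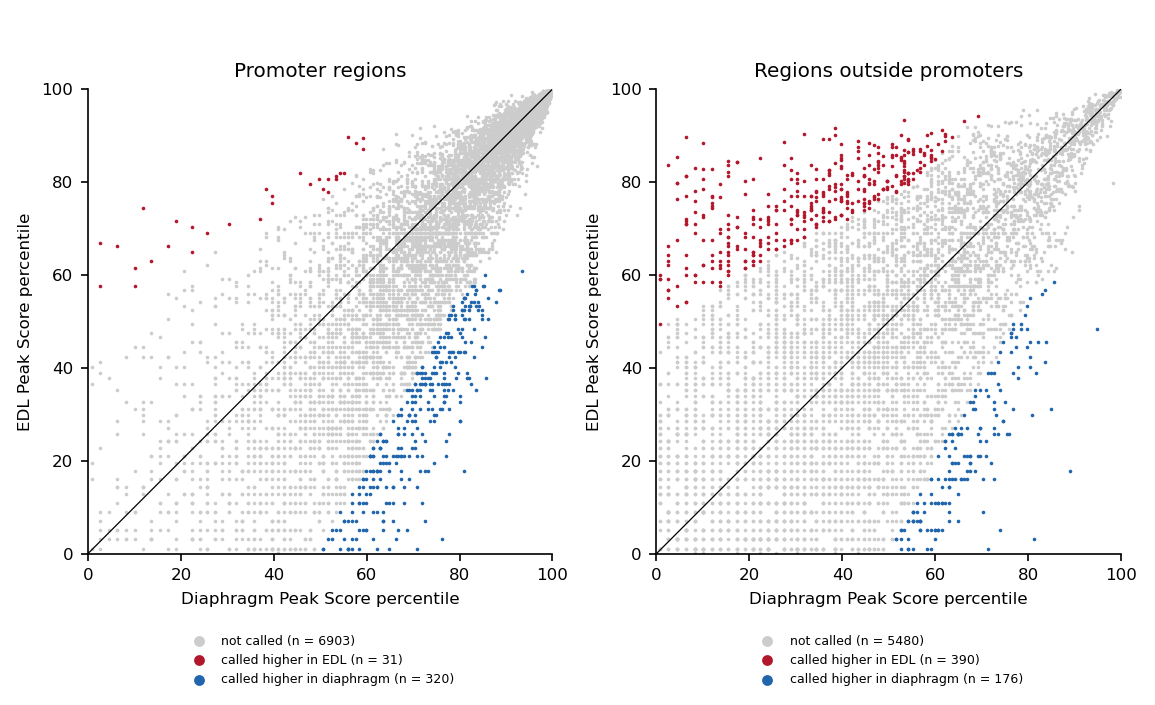
Percentile of the Peak Score within the Dia list (horizontal axis) against that within the EDL list (vertical axis) for overlapping pairs, left for the 7254 at promoters and right for the 6046 outside promoters, with a line of equal percentiles. Points called higher in EDL (red) number 31 at promoters and 390 outside them, and points called higher in Dia (blue) 320 and 176.

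The 12 pairs with the widest gap towards EDL were near Mon2, Ccdc6, Nudt4, Smyd2, Shisa2, Kcnc4, Kcnma1, Fntb, Mir7243, Myf6, Gnl3l and Sestd1, none at a promoter. The Mon2 intron pair (chr10:123060936-123061144) was at percentile 89.6 in EDL and 6.32 in Dia, a gap of 83.3 points. Smyd2 encodes a lysine methyltransferase found in the cytoplasm of muscle, and its intergenic pair printed above was 78.3 points apart. Kcnc4, a voltage-gated potassium channel, had a pair 58757 bp downstream of its TSS at 79.9 in EDL and 4.42 in Dia. Myf6, which encodes the muscle regulator MRF4, had a pair 68418 bp upstream of its TSS (chr10:107563043-107563251) at 82.8 in EDL and 10.1 in Dia. Of these 12 pairs, all but that of Gnl3l were found in both Quad and Sol.

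The 12 pairs with the widest gap towards Dia were near Bach2, Ttc39c, Gm8579, Rnase10, Plcb1, Hnrnpa3, Dapk1, Igbp1, Stat5b, Txnl4a, Rufy3 and Tanc1, and 8 of them were at promoters. Bach2, a transcriptional repressor best known from lymphocytes, had the pair printed above, 78.2 points higher in Dia and overlapping no peak of the Quad or Sol selection. Plcb1 encodes a phospholipase C that acts downstream of G-protein-coupled receptors, and its promoter pair was 69.8 points higher in Dia. Stat5b, a transcription factor activated by growth hormone, had a promoter pair at percentile 5.10 in EDL and 68.6 in Dia (chr11:100850476-100850708 in Dia). Each of these pairs was near the lower limit of the other list, where 59 to 68 tags in EDL, for the pairs higher in Dia, set a wide counting interval.

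Peaks far up 1 list with no counterpart within 1000 bp in the whole other list were chosen for mention after their values were seen. On the EDL side they included intron 1 of Ak1, adenylate kinase of muscle (chr2:32626264-32626472, score 22.9), the promoter of Midn (score 20.9), intron 1 of Brd2 (score 19.4), a region upstream of Coq10a (score 19.0) and intron 1 of Usp2 (score 18.7). Mef2d stood out with 2 such peaks, the upstream region printed above and its promoter (chr3:88142235-88142443, score 18.1), and neither overlapped a peak of the Quad or Sol selection. On the Dia side they included intron 1 of the noncoding RNA Lncpint (chr6:31216771-31217003, score 17.0), the promoter of Aida (score 15.5), Lpin1 (score 14.8), the promoter of Tapbp (score 14.7), a region 8113 bp upstream of the clock gene Nr1d1 (score 13.8) and the promoter of Tpm1 (score 13.6). Lpin1 encodes a phosphatidic acid phosphatase of lipid synthesis and Tpm1 a tropomyosin of the thin filament. The EDL peak with the highest score of this kind, near Gm5458 (score 41.0), consisted of soft-masked repeat over 86.6% of its bases.

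Peaks were then counted by gene. In EDL 11540 genes had a peak, in Dia 12438, and 13556 in either. More peaks in EDL were found for 3136 genes (23.1%), more in Dia for 3672 (27.1%), and 6748 genes had equal numbers. This order reversed with every peak kept (6314 genes towards EDL and 2059 towards Dia) and with the same minimum score in both lists (4065 and 1997). A difference of 2 peaks or more was found for 893 genes towards EDL (6.59%) and for 649 towards Dia (4.79%). Dia peaks were spread over more genes, while EDL peaks were gathered around fewer. Of the 2660 genes with a single peak in all, 918 had it in EDL and 1742 in Dia. Of the 722 genes with 8 peaks or more, 404 had more in EDL (56.0%) and 174 more in Dia (24.1%). Promoter peaks were found at 7945 genes in EDL and 8556 in Dia, 7070 of them in both. Of these genes 861 had a promoter peak in EDL and none in the whole Dia list, and 913 had one in Dia and none in the whole EDL list.

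Genes that leaned to 1 side leaned the same way between the fast and the slow limb muscle more often than the other way. Of the 893 genes with 2 or more peaks more in EDL, 474 were richer in Quad than in Sol peaks (53.1%, 49.8% to 56.3%), 197 had more in Sol (22.1%) and 222 had equal numbers. Of the 649 genes with 2 or more peaks more in Dia, 118 had more in Quad (18.2%, 15.4% to 21.3%), 276 more in Sol (42.5%, 38.8% to 46.4%) and 255 equal numbers. Over all 13556 genes the shares were 19.6% and 19.4%.

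**Figure D3:**
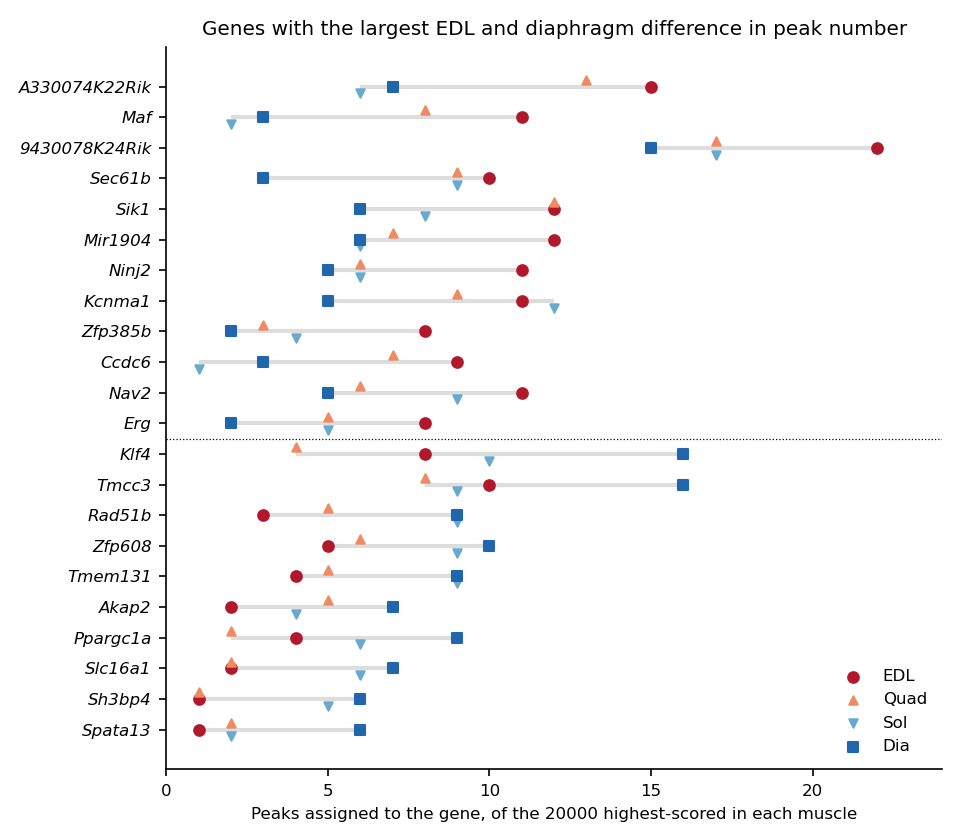
Number of peaks per gene in EDL, Quad, Sol and Dia for the 12 genes with the largest excess in EDL and 10 of the 12 with the largest excess in Dia, ordered by the difference, with EDL as circles, Quad and Sol as triangles and Dia as squares. Maf goes from 11 peaks in EDL to 3 in Dia, and Klf4 from 8 to 16.

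The 12 genes with the largest excess in EDL were A330074K22Rik, Maf, 9430078K24Rik, Sec61b, Sik1, Mir1904, Ninj2, Kcnma1, Zfp385b, Ccdc6, Nav2 and Erg, and all 12 also had more peaks in the whole EDL list than in the whole Dia list. Maf, a large Maf transcription factor that drives the fastest myosin gene Myh4, had 11, 8, 2 and 3 peaks in EDL, Quad, Sol and Dia. These EDL and Dia peaks lay from 1049 bp upstream to 546951 bp downstream of the Maf TSS, all but 2 of them in intergenic sequence. At a region 122329 bp downstream (chr8:115584461-115584669) the percentile was 60.0 in EDL and 8.23 in Dia. Sik1, a salt-inducible kinase that acts on class IIa histone deacetylases, had 12, 12, 8 and 6 peaks in EDL, Quad, Sol and Dia. Kcnma1, the calcium-activated BK potassium channel, had 11 in EDL and 5 in Dia, but 12 in Sol. Ccdc6 had 9, 7, 1 and 3 peaks, and like Maf it had few peaks in Sol. Erg, an ETS factor of endothelial cells, had 8, 5, 5 and 2 peaks.

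The 12 genes with the largest excess in Dia included Klf4, Tmcc3, Rad51b, Zfp608, Tmem131, Akap2, Ppargc1a, Slc16a1, Sh3bp4 and Spata13. With every peak of both lists counted, 7 of the 12 had more peaks in Dia, 2 had equal numbers and 3 had more in EDL (Klf4, Zfp608 and Sh3bp4). In 10 of the 12, Sol had more peaks than Quad, whereas among the 12 genes of the EDL side Quad had more in 5, Sol more in 3 and 4 were equal. Ppargc1a, which encodes PGC-1α, a coactivator of mitochondrial genes, had 4, 2, 6 and 9 peaks in EDL, Quad, Sol and Dia, and 6 and 9 in the whole EDL and Dia lists. Of its 9 Dia peaks, 7 had no overlap with the EDL selection, among them the promoter (chr5:51553865-51554097, score 6.55), which a lower-ranked EDL peak overlapped. A region 28065 bp upstream of the Ppargc1a TSS (chr5:51595674-51595906, score 6.75) overlapped no EDL peak of any rank and overlapped a Sol peak. In EDL, 2 of the 4 Ppargc1a peaks lay in introns where Dia had none, with the stronger at a score of 9.72.

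Slc16a1, the lactate transporter MCT1 of oxidative fibres, had 2, 2, 6 and 7 peaks in EDL, Quad, Sol and Dia, and 5 and 7 in the whole EDL and Dia lists. Klf4, an immediate early zinc-finger factor, had 8, 4, 10 and 16 peaks, but 17 in the whole EDL list, so that its excess in Dia was one of rank. Its promoter was at percentile 67.5 in EDL and 78.6 in Dia. An exonic Klf4 peak (chr4:55530307-55530539, score 9.77) was found in Dia and overlapped no EDL peak of any rank.

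Gene lists were compared with these backgrounds. Because genes with many peaks leaned to EDL (37.0% more in EDL and 24.9% more in Dia among the 3369 genes with 4 peaks or more), the shares of all 13556 genes are a lenient reference for lists of well-studied muscle genes. Muscle identity genes, which encode the shared regulators and structural proteins of the fibre, checked the tissue label. All 25 had a peak in EDL and 22 in Dia, with 19 having more peaks in EDL and 3 more in Dia, and 86, 76, 81 and 59 peaks in all in EDL, Quad, Sol and Dia. Of these, 14 had 4 peaks or more, 9 with more in EDL and 3 with more in Dia. Both libraries thus held open chromatin at defining muscle genes. Promoter peaks were found in EDL alone at 9 of them (Mb, Myod1, Myf6, Mef2d, Ryr1, Cacna1s, Actn2, Tcap and Cav3) and in Dia alone at none, and the 11 promoters open in both ranked higher in EDL by a median of 20.5 percentile points. Over all promoter pairs the median was -2.73 points.

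Myod1, the founding myogenic regulator, had a promoter peak in EDL (chr7:46376132-46376340, score 10.9), Quad and Sol, and none in the whole Dia list. Acta1, the skeletal muscle actin, had a promoter peak with a score of 16.7 in EDL and 10.1 in Dia, while Ngdn, a gene displayed by the study, had 25.1 and 24.4. Mef2d, a MEF2 factor, had 4, 3, 2 and 1 peaks in EDL, Quad, Sol and Dia, and its pair 8885 bp upstream of the TSS was at percentile 85.9 in EDL and 45.7 in Dia. Cacna1s, the calcium channel that senses voltage in the T-tubule, had the promoter peak whose sequence is printed above at a score of 10 in EDL, and an intron 2 pair at percentile 68.9 in EDL and 25.7 in Dia. Mb, myoglobin, went the other way in number, with 3, 3, 4 and 5 peaks in EDL, Quad, Sol and Dia.

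Fast-fibre contractile and calcium genes had more peaks in EDL. Of 20 genes, 16 had a peak in EDL or Dia, 9 had more in EDL and 2 more in Dia, and the list summed to 35, 44, 28 and 19 peaks in EDL, Quad, Sol and Dia. Only 6 members had 4 peaks or more, 2 with more in EDL and 1 with more in Dia. Counted by genes, the lean was thus mostly in members with fewer peaks. The largest differences in peaks, though, were at Mylk2 and Myl1, which have 4 peaks or more. Mylk2, the skeletal myosin light chain kinase, had 5, 6, 2 and 0 peaks. Its strongest EDL peaks were in an intron (chr2:152914506-152914714, score 17.4) and an exon (chr2:152913544-152913752, score 16.1), and no Mylk2 peak in EDL overlapped any Dia peak. Myl1, which encodes fast myosin light chains, had 8, 8, 5 and 4 peaks, and Tnnc2, fast troponin C, had 3, 2, 1 and 0. Myh4, the myosin of the fastest fibres, had a promoter peak in EDL (chr11:67237619-67237827, score 12.8) and Quad, and none in Sol or Dia. Myh2, the myosin of the fast oxidative fibres, had peaks of low rank in both lists, with scores of 4.33 and 3.94 in EDL and 4.53 in Dia. Pvalb, the calcium buffer parvalbumin, had a peak 5215 bp upstream of its TSS in EDL (score 10.8) and 2 other peaks in Dia (6.24 and 5.84).

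Slow-fibre contractile genes did not lean the opposite way. Of 14 genes with a peak, 6 had more in EDL and 5 more in Dia, with 23, 21, 45 and 21 peaks in EDL, Quad, Sol and Dia, so that Sol stood apart from both. Csrp3, the muscle LIM protein, had 0, 0, 2 and 2 peaks. Myoz2, a Z-disc protein of slow fibres, had 5, 4, 7 and 3.

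Both lists of fibre-type regulators leaned to EDL. Among 18 fast-fibre regulators with a peak, 12 had more peaks in EDL and 4 more in Dia (70, 60, 54 and 46 peaks in EDL, Quad, Sol and Dia). With 4 peaks or more there were 12, with 8 having more in EDL and 2 more in Dia. The list had 26 pairs, 22 of them outside promoters, with 6 called higher in EDL and none in Dia. Over all pairs outside promoters the called shares were 6.45% and 2.91%. Besides Maf, members with more peaks in EDL included Eya4, a transcriptional cofactor, with 7, 6, 3 and 3 peaks, Prkag3, the AMPK subunit of fast glycolytic muscle, with 4, 4, 1 and 1, and Nfix with 2, 5, 2 and 0. Tbx15, a regulator of glycolytic fibres, had a promoter peak in EDL and none in the Dia selection. Sox6, which represses slow-fibre genes, had 7, 4, 6 and 8 peaks, but 14 in the whole EDL list. Among slow-fibre and oxidative regulators, 13 of 27 had more peaks in EDL and 4 more in Dia (105, 96, 95 and 88 peaks). Those with 4 peaks or more numbered 19, with 10 having more in EDL and 4 more in Dia. Nfatc1, which carries nerve activity to slow-fibre genes, had 4, 3, 5 and 2 peaks, and Tead1 had 11, 11, 7 and 7. Ppargc1a was the member with the largest excess in Dia.

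Fuel genes separated by pathway. Of 30 glycolysis and glycogen genes with a peak, 19 had more in EDL and 3 more in Dia, with 83, 82, 67 and 54 peaks in EDL, Quad, Sol and Dia. Those with 4 peaks or more numbered 17, with 12 having more in EDL and 1 more in Dia. The list had 45 pairs, 7 called higher in EDL and 1 in Dia. Over all pairs the called shares were 3.12% and 3.82%, and outside promoters 6.45% and 2.91%. Hk2, the insulin-responsive hexokinase, had 6, 5, 2 and 1 peaks. Its promoter was open in both (percentile 78.5 in EDL and 85.8 in Dia), and 5 distal EDL peaks had no Dia counterpart, such as an intronic one 18049 bp downstream of the TSS (chr6:82756301-82756509, score 9.24). Pygm, the muscle glycogen phosphorylase, had 3, 3, 2 and 1. Fatty acid genes leaned to neither side, with 7 of 29 having more peaks in EDL and 7 more in Dia (55, 52, 53 and 54 peaks). Among the 11 with 4 peaks or more, 3 had more in EDL and 4 more in Dia. Cd36, the fatty acid translocase, had 3, 3, 5 and 6 peaks, though 8 in the whole EDL list and 7 in the whole Dia list. Plin2, which coats lipid droplets, had 2, 2, 2 and 4, and Pnpla2, the triglyceride lipase ATGL, had 2, 2, 2 and 0.

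Oxidative phosphorylation and TCA genes also leaned to neither side, with 9 of 39 having more peaks in EDL and 8 more in Dia (52, 49, 47 and 50 peaks), and 30 of their promoters were open in both. Only 7 members had 4 peaks or more, 3 with more in EDL and 1 with more in Dia. This list therefore had less room for a difference in peak number than the glycolysis list. Idh2, the mitochondrial isocitrate dehydrogenase, had 3, 4, 4 and 5 peaks, and Tfam, which packages mitochondrial DNA, had 3, 2, 3 and 1. Cytosolic ribosomal protein genes, listed as housekeeping genes, had 3 of 30 with more peaks in EDL and 6 with more in Dia, and 37, 36, 36 and 41 peaks.

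Excitation genes leaned to EDL. Of 17 potassium, chloride and sodium channel genes with a peak, 10 had more in EDL and 5 more in Dia (49, 47, 49 and 32 peaks in EDL, Quad, Sol and Dia), and their 10 pairs outside promoters had a median of 33.4 percentile points higher in EDL, against 0.08 over all such pairs. Members with 4 peaks or more numbered 11, 6 of them with more in EDL and 3 with more in Dia. Scn4a, the sodium channel of the muscle action potential, had 4, 3, 2 and 0 peaks, and Clcn1, the muscle chloride channel, had 2, 1, 1 and 0, among them the promoter printed above (score 6.35). Kcnc1, a fast voltage-gated potassium channel, had 6, 4, 2 and 2 peaks, with an intron pair (chr7:46403663-46403871 in EDL) at percentile 89.2 in EDL and 37.1 in Dia.

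Neuromuscular junction genes had 7 of 15 with more peaks in EDL and 5 with more in Dia (26, 28, 29 and 20 peaks). Dok7 and Lrp4, which act with the kinase MuSK to cluster acetylcholine receptors, had 3 and 3 peaks in EDL and 1 and 1 in Dia. Dystrophin complex and costamere genes had 9 of 23 with more in EDL and 6 with more in Dia (54, 57, 67 and 51 peaks). Among the 12 with 4 peaks or more this order turned, with 4 having more in EDL and 5 more in Dia. Dmd had 2 peaks in EDL and none in Quad, Sol or Dia, and Sntb1, a syntrophin, had 0, 2, 1 and 3.

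Glucocorticoid and atrophy genes leaned to EDL, and insulin and IGF genes did so less in this selection. The first list mixes both kinds of gene, and some members are also muscle identity genes. Of 24 glucocorticoid and atrophy genes with a peak, 12 had more in EDL and 3 more in Dia (94, 94, 78 and 69 peaks in EDL, Quad, Sol and Dia), while all 16 promoters with a peak were open in both. Those with 4 peaks or more numbered 14, with 9 having more in EDL and 1 more in Dia. Nr3c1, the glucocorticoid receptor, had 11, 9, 11 and 7 peaks. Zbtb16, a strongly glucocorticoid-induced zinc-finger factor, had 12, 11, 9 and 7 peaks and kept the same promoter rank (percentile 81.9 in EDL and 80.1 in Dia). Ddit4, an inhibitor of mTORC1, had 8, 8, 5 and 3 peaks with its promoter at percentile 92.2 in EDL and 92.3 in Dia, and upstream regions such as chr10:59972593-59972801 (score 12.1) were found in EDL without a Dia peak. Klf15, a glucocorticoid-induced regulator of amino acid use, had 5, 5, 3 and 2. Insulin and IGF genes had 7 of 20 with more in EDL and 5 with more in Dia (58, 60, 56 and 54 peaks). Their mean of 0.20 peaks per gene, EDL minus Dia, became 1.15 with every peak kept. For glucocorticoid and atrophy genes the mean went from 1.04 to 1.88. With every peak kept, EDL had 30136 peaks and Dia 21582, so means over genes of any kind move towards EDL. Grb14, an adaptor that inhibits the insulin receptor, had 0, 0, 2 and 4 peaks, and 2 in the whole EDL list, with its promoter peak in Dia (chr2:65022841-65023073, score 6.65) overlapped by no EDL peak.

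Genes that respond within minutes to activity or handling were balanced. Of 24 immediate early and AP-1 genes, 9 had more peaks in EDL and 8 more in Dia (81, 89, 87 and 86 peaks in EDL, Quad, Sol and Dia). Their mean of -0.21 peaks per gene, EDL minus Dia, became 1.46 with every peak kept, where the EDL list is the longer one. Junb, an AP-1 subunit, had 3, 3, 1 and 0 peaks and Egr3 had 1, 4, 2 and 4, with 5 and 4 in the whole EDL and Dia lists. Circadian clock genes had 4 of 17 on each side (42, 47, 41 and 40 peaks). Angiogenic genes had 5 of 17 with more in EDL and 7 with more in Dia (37, 27, 36 and 38 peaks).

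Position genes were few but one-sided at single promoters. Of 22 posterior Hox genes (paralogues 8 to 13), 6 had a peak, 4 with more in EDL and 1 with more in Dia. Promoter peaks in EDL with none in the whole Dia list were found at Hoxa10 (score 7.6), Hoxa11 (score 6.83), Hoxc10 (score 12.5) and Hoxd10 (score 5.68). These genes are expressed in the hind limb during development. Hoxa10 and Hoxa11 had no such peak in Quad or Sol. Without promoter peaks the list changed sides, from a mean of 0.50 peaks per gene more in EDL to 0.50 fewer. Among 8 anterior Hox genes with a peak, 5 had more in EDL and 2 more in Dia. At 2 anterior genes, too, a promoter peak was found in EDL with none in the whole Dia list. Such promoters were therefore not particular to the posterior genes. The mean of the anterior list, 0.38 peaks per gene more in EDL, became -0.33 with 10000 peaks per list. Limb and body-position regulators leaned to neither side, with 7 of 19 having more in EDL and 6 more in Dia (31, 33, 35 and 33 peaks). With every peak kept, where the EDL list is the longer one, the mean was 1 peak per gene higher in EDL. Meis2, a homeobox cofactor of Hox proteins, had 0, 0, 0 and 3 peaks in EDL, Quad, Sol and Dia, none in the whole EDL list, with its promoter peak at chr2:116065673-116065905 (score 9.27). Gata6, a GATA factor of mesoderm, had 1 promoter peak in Dia (score 10.3) and none in EDL, Quad or Sol. Zfpm2, a GATA cofactor needed for diaphragm development, had 0, 0, 1 and 2.

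**Figure D4:**
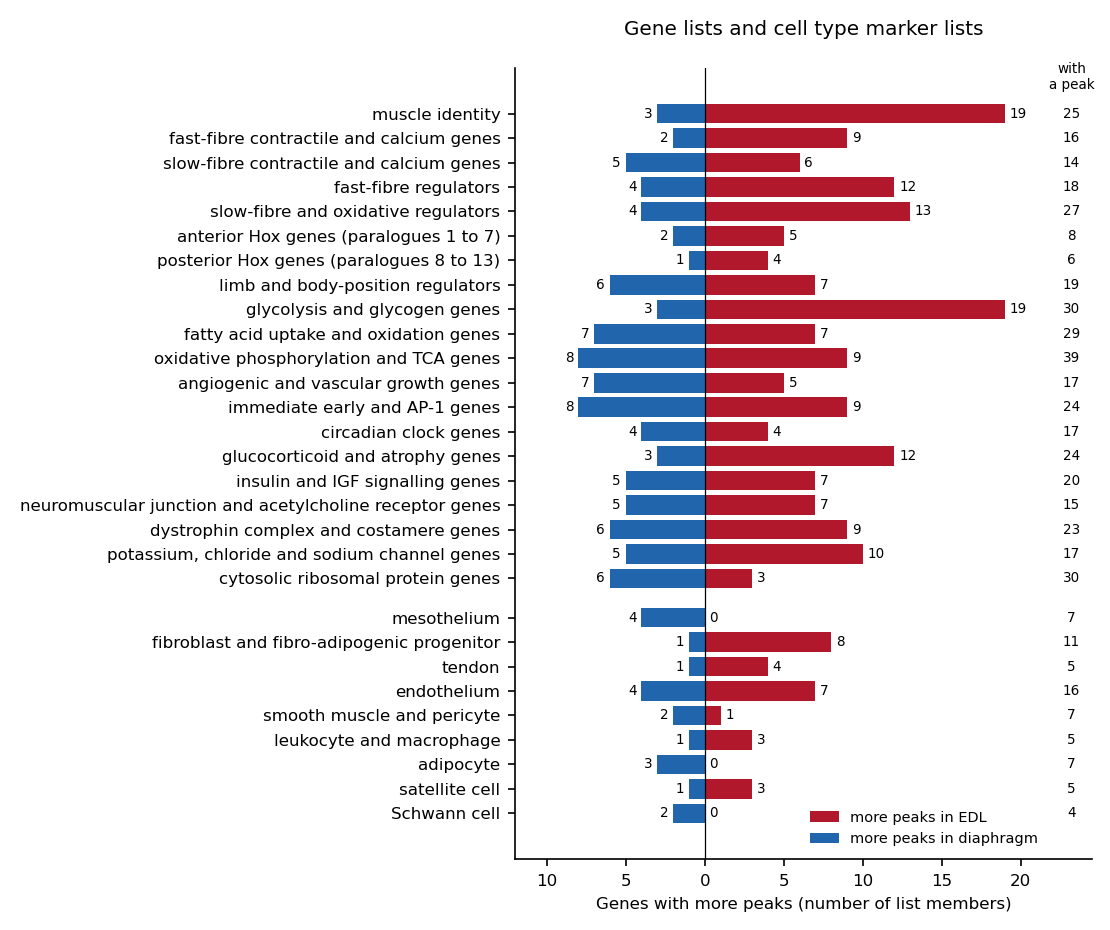
Number of genes of each list (horizontal axis) with more peaks in EDL (red, to the right) or more in Dia (blue, to the left), with the number of genes that had a peak in either muscle at the right edge; gene lists are above and cell type markers below. Muscle identity and glycolysis genes (both 19 against 3) have the widest gap in number of genes towards EDL, while fatty acid genes (7 against 7) are even.

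Whole muscle also holds other cells, and in such samples fewer nuclei of a type and less accessible signal per nucleus cannot be told apart. Mesothelial markers had 7 of 16 genes with a peak, 0 with more in EDL and 4 with more in Dia, and 4, 6, 4 and 9 peaks in EDL, Quad, Sol and Dia. Their mean of -0.71 peaks per gene, EDL minus Dia, became 0 with 10000 peaks per list and -0.12 with every peak kept. Lrrn4 had 0, 0, 0 and 2 peaks, while the defining markers Msln, Upk1b and Wt1 had none in any of the 4 selections. Fibroblast markers leaned to EDL, with 8 of 11 having more there and 1 more in Dia (28, 20, 15 and 13 peaks), a mean of 1.36 peaks per gene that became -0.20 with 10000 peaks per list. Dpt had 5, 4, 5 and 2 peaks and Col1a2 had 4, 3, 0 and 1. Tendon markers had 4 of 5 with more in EDL and 1 with more in Dia (8, 10, 8 and 5 peaks).

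Endothelial markers had 7 of 16 with more in EDL and 4 with more in Dia (47, 42, 47 and 37 peaks), with Flt1 at 8, 5, 5 and 4 peaks and Emcn at 0, 0, 2 and 3. Adipocyte markers leaned to Dia, with 0 of 7 having more in EDL and 3 more in Dia (7, 9, 7 and 12 peaks), and Schwann cell markers had 0 of 4 with more in EDL and 2 with more in Dia (3, 3, 5 and 5 peaks). Both of these directions reversed with 10000 peaks per list. Pparg, the nuclear receptor of fat cells, had 0, 1, 1 and 3 peaks, and its promoter printed above had a score of 6.14 in Dia and no EDL peak. Adipoq and Pck1 had no peak in any selection. Smooth muscle markers had 1 of 7 with more in EDL and 2 with more in Dia (a mean of -0.29 peaks per gene that became 1 with 10000 peaks per list), leukocyte markers 3 of 5 and 1, and satellite cell markers 3 of 5 and 1. The part of these cells in the results above was not tested.

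Motifs gave a reading that does not depend on the nearest gene. In the 200 bp around the centres of 6486 EDL-only and 6483 Dia-only peaks, both strands were searched for an E-box (CAGCTG), NFAT (TGGAAA), ERR (TCAAGGTCA), a nuclear receptor monomer site (AGGTCA), TEAD (CATTCC), AP-1 (TGANTCA), PITX (TAATCC), posterior HOX (TTTATNG), T-box (AGGTGTGA), MAF (TGCTGAC), RUNX (TGTGGTT), ETS (CCGGAA), an SP/KLF box with the letters GGGCGG, the site of GATA factors with the letters AGATAA, MEF2 and the glucocorticoid receptor. The monomer site is the stretch for a single receptor molecule, and many receptors bind it as dimers. The ERR letters contain the monomer site, and the MEF2 and posterior HOX letters can overlap. A match describes the letters, not a bound factor.

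Motifs of muscle regulators were more frequent on the EDL side. MEF2 sites were found in 6.58% of EDL-only and 2.81% of Dia-only peaks, a difference of 3.78 points (3.05 to 4.51), against 1.71% and 1.76% in flanks 2000 bp away. E-boxes were found in 24.7% and 18.4% (6.30 points, 4.89 to 7.71), against 9.99% and 9.33% in the flanks. Glucocorticoid receptor sites, which are long and rare, were found in 1.70% and 0.51% (1.19 points, 0.83 to 1.56), with 0.34% in both flanks. Outside promoters MEF2 was at 7.02% and 3.43%. As a reference, MEF2 sites were found in 1.86% of 32851 RefSeq promoters and in 4.21% of all whole EDL peaks and 3.03% of all whole Dia peaks. E-boxes were found in 16.3%, 19.9% and 19.3% of these sets.

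PITX (6.32% and 4.35%), posterior HOX (7.25% and 5.31%) and MAF sites (6.74% and 5.34%) were also more frequent in EDL-only than in Dia-only peaks. PITX and posterior HOX letters, which are rich in A and T, were more frequent still in the flanks, at 7.80% and 8.64% for PITX. TEAD (13.5% and 11.2%), nuclear receptor (19.0% and 16.4%) and AP-1 sites (9.82% and 8.62%) differed in the same direction, but outside promoters the intervals of TEAD and AP-1 reached 0. The nuclear receptor difference of 2.63 points was 0.81 when whole peaks were searched and 0.30 with every peak kept, both with intervals that reached 0. NFAT sites were found in 18.7% and 18.6% (-1.26 to 1.42 points), RUNX in 3.65% and 3.49%, T-box in 0.72% and 0.48%, and ERR in 0.42% and 0.35%, with intervals of the difference that included 0.

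On the Dia side SP/KLF, GATA and ETS sites were more frequent. SP/KLF sites, the GC boxes of promoters, were found in 14.7% of EDL-only and 22.6% of Dia-only peaks (-7.92 points, -9.25 to -6.59), and outside promoters in 9.34% and 12.2%. GATA sites were found in 5.06% and 7.54% (-2.49 points, -3.32 to -1.65) and outside promoters in 5.26% and 8.89%, but flanks held more of them, 9.85% and 11.1%. ETS sites were found in 6.07% and 7.85% (-1.78 points, -2.65 to -0.90), and outside promoters the interval reached 0. Of the RefSeq promoters 35.7% held an SP/KLF, 11.2% a GATA and 14.9% an ETS site.

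**Figure D5:**
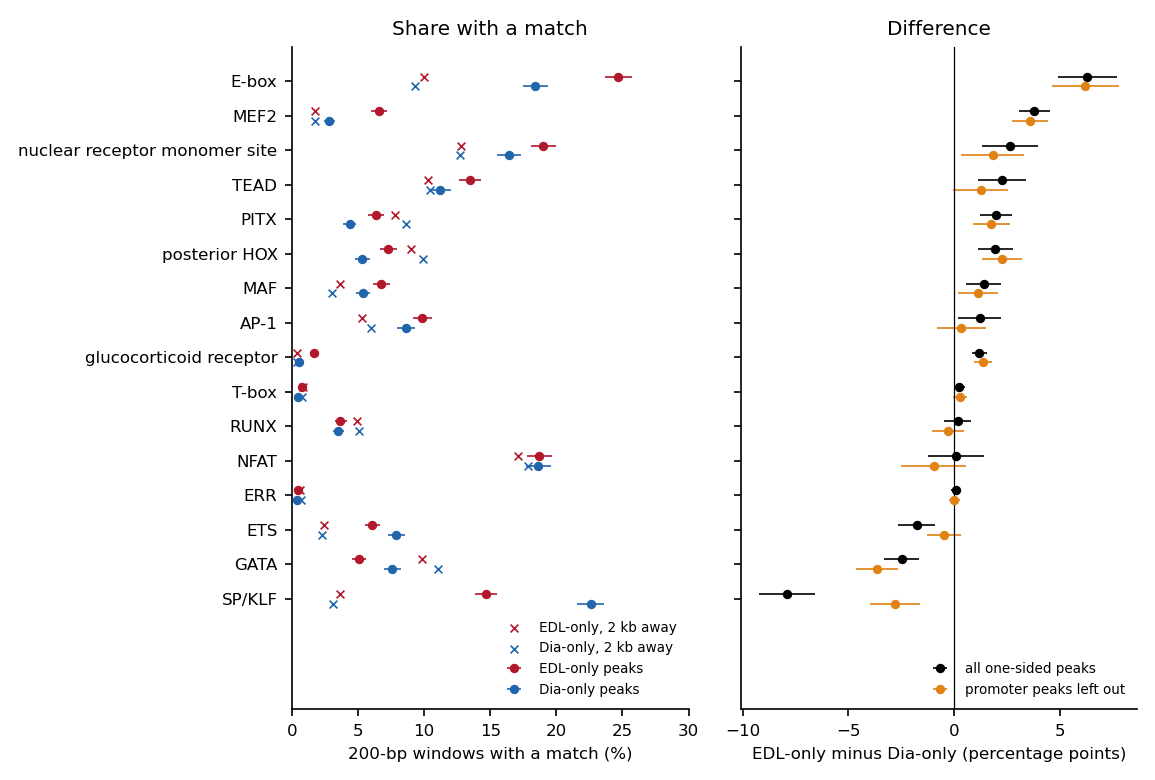
Left, share of 200-bp windows with each of the 16 motifs (percent) in EDL-only (red) and Dia-only peaks (blue), with 95% Wilson intervals, and in flanks 2000 bp away (crosses); right, the difference in percentage points with Newcombe intervals, for all one-sided peaks (black) and without promoter peaks (orange). Differences range from 6.30 points for the E-box to -7.92 for SP/KLF.

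Pairs open in both muscles gave a second set of regions with no peak in common with the one-sided peaks. Outside promoters, MEF2 sites were found in 44 of the 390 pairs called higher in EDL (11.3%), 5 of the 176 called higher in Dia (2.84%) and 5.26% of the 5472 pairs not called. The difference between the called sets was 8.44 points (3.87 to 12.3). Nuclear receptor monomer sites were at 27.4%, 14.2% and 17.9%. SP/KLF sites were at 5.13%, 35.2% and 20.3%. E-boxes were at 29.0%, 19.3% and 24.1%. NFAT sites, nearly equal in the one-sided peaks, were at 21.3%, 11.9% and 19.4% here, 9.35 points apart (2.58 to 15.2). GATA sites, higher in Dia-only peaks, were at 5.38% and 3.41% here, a difference whose interval included 0 (-2.27 to 5.25 points).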

How the data were processed

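ATAC-seq peak lists of EDL and Dia, with those of Quad and Sol for reference, were analysed as deposited. Per the methods and the submitters' processing notes, the authors aligned 42-bp read pairs to mm10 with Bowtie2, kept 1 tag per start position and called fixed-width peaks in each library with HOMER. The Tn5 offset is not given in the sources used here. The deposited Peak Score is a tag count scaled by library size, and the deposited focus ratio, a fraction, was summarised but decided nothing. The column for repeat and CpG classes was empty.

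The 20000 highest-scored peaks of each list were kept, matched at 1 bp of overlap and counted by the authors' nearest gene. Percentiles were mid-ranks within a list, with exact Poisson intervals of the tags behind each score. Shares carry Wilson and differences Newcombe intervals at 95%, for counting error only. Depth limits a percentile most near the bottom of a list. A pair was called as defined in the text. Sequences came from RefSeq (GRCm38.p6), and 47 of 74 one-sided promoters of listed genes had a RefSeq promoter under the peak. Named genes were list members, genes the study displays, the 12 genes and 12 pairs furthest apart in each direction and the highest-scored one-sided peaks. Some genes and 1 motif are not reported here. The members, gene lists and motifs were chosen with earlier results of these data known. Groups followed the labels, with 1 library per muscle and no test. Alternatives changed the number of peaks, overlap, gene assignment, promoter definition and call rule, and 2 were added after seeing the data: the same minimum score in both lists, and no peak of the other list within 1000 bp. Scripts, tested on simulated data, used Python 3.11.15, pandas 2.3.3, numpy 2.4.6, scipy 1.17.1 and matplotlib 3.10.9.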

Additional observations from a re-analysis of the deposited data

How the results depend on the processing

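No paired analysis was possible because each muscle had 1 library. With every peak kept, 6314 genes had more peaks in EDL and 2059 in Dia (2445 and 258 by 2 or more), 46.7% of regions were shared, 13671 peaks were EDL-only, and 1219 and 118 pairs were called. With 10000 peaks per list these were 1799, 2159, 334 and 121 genes, 57.7%, 2679 one-sided peaks in each, and 176 and 139 pairs. With the same minimum score in both lists, 4065 genes had more in EDL and 1997 in Dia (1259 and 188 by 2 or more), so the excess in Dia depends on taking equal numbers of peaks. Peaks within 50 kb of a TSS left 420 genes with 2 or more in Dia. Of the 29 lists 13 leaned to EDL and 5 to Dia, against 26 and 1 with every peak and 21 and 1 at the same score. Sharing was 41.7% with 50% of each peak overlapped and 55.3% with gaps closed. Pairs called numbered 231 and 298 at 40 points and 861 and 1574 without intervals. The promoter shares of EDL-only and Dia-only peaks were 9.05% and 17.7% with every peak, 20.6% and 27.3% with reciprocal overlap, 17.9% and 28.1% within 1 kb of a TSS, and 8.13% and 15.8% with no near peak. EDL-only peaks were in Quad in 64.5% (every peak) and 46.6% (reciprocal), and in Sol in 39.9% (reciprocal) and 39.5% (no near peak). Dia-only peaks were in Quad in 37.4% (every peak), 23.0% (reciprocal) and 11.8% (no near peak), and in Sol in 33.9% (every peak) and 18% (no near peak), so that Quad passed Sol with every peak. The mean of peaks per gene, EDL minus Dia, changed sign with 10000 peaks for markers of fibroblasts (-0.20), adipocytes (0.50), Schwann cells (0.50) and smooth muscle (1), and for anterior Hox (-0.33), fatty acid (-0.30), immediate early (0.25), angiogenic (0.09) and limb genes (0.07). With every peak, where the EDL list is longer, it did so for immediate early (1.46), limb (1), angiogenic (0.84), smooth muscle (0.60) and ribosomal protein genes (0.23). These also turned to EDL at the same score (0.07 to 0.44). Without promoters the mean changed sign for posterior Hox (-0.50) and angiogenic genes (0.07), and within 50 kb for angiogenic (0.12) and immediate early genes (0.08). The causes were not tested. Differences for nuclear receptor, TEAD, AP-1 and ETS motifs had intervals that reached 0 under 1 or more alternatives, and that for NFAT became -1.89 points when whole peaks were searched.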
